A study of Mus musculus with 1 sample.

Results

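The genes examined here are 10 that mark basophils, mast cells and eosinophils, out of 54532 Ensembl genes in the deposited table. They were taken from a list of names, 6 for basophils and mast cells (*Mcpt8*, *Prss34*, *Cpa3*, *Ms4a2*, *Fcer1a* and *Hdc*) and 4 for eosinophil granules (*Prg2*, *Prg3*, *Epx* and *Ear2*), and all 10 were found through GENCODE M21. The sample is RNA of sorted c-kit+ bone marrow (BM) cells from Ctrl mice, which the labels give as wild type on the C57BL/6 background. The labels add that the cells were negative for lineage markers and for Sca-1. No treatment is named, and neither the age nor the number of the mice is given for this library. It is the single library examined, as the cells from *Gadd45g*-deficient mice with MPN were not analysed here. There is therefore no test between groups, no spread between mice, and every interval below covers counting error only. Levels are in FPKM, the fragments on a gene scaled to the length of its exons and to the total of the library.

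Basophils, mast cells and eosinophils are granulocytes that arise from myeloid progenitors in the marrow and act in allergy and in defence against parasites. Basophils and mast cells carry the high-affinity IgE receptor and store histamine and proteases, which they release when IgE on their surface is crosslinked. Mast cells complete their maturation in tissues, whereas basophils and eosinophils mature in the marrow. Eosinophils store basic proteins, a peroxidase and ribonucleases that are made early in their development and packed into granules.

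All 10 genes reached 1 FPKM, a level reached by 22.2% of all genes and by 46.8% of protein-coding genes. The counts at 1 FPKM given below for other gene lists are to be read beside these shares. A bulk library cannot tell apart a few cells with much of an RNA from many cells with little of it. The eosinophil granule genes were far higher than the basophil and mast cell genes. Their median was 353 FPKM and that of the other 6 genes was 31.1 FPKM, a ratio of 11.4. Its inverse, 0.0880, moved to 0.173 with the length of the longest protein-coding transcript, to 0.144 without *Ear2* and to 0.0503 without *Hdc*. Of the 24 pairs that set 1 gene of each group side by side, the eosinophil gene was higher in 23, and the exception was *Prss34* above *Prg3*. The median of all genes above 0 FPKM was 1.77 FPKM. Summed, the eosinophil genes held 0.837% of the FPKM of the library and the basophil and mast cell genes 0.0788%. Most of the former was *Prg2*, which made up 77.0% of the eosinophil sum. Without it the remaining 3 genes still summed to 825 FPKM, 2.44 times the sum of the 6 basophil and mast cell genes.

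**Figure D1:**
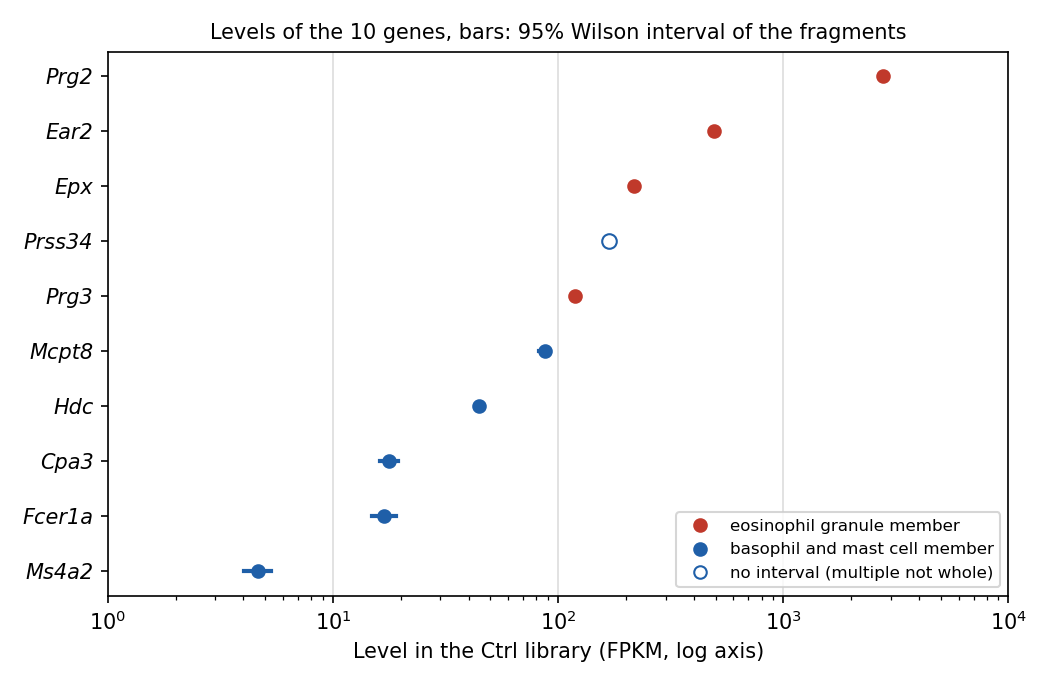
Levels of the 10 genes in the Ctrl library in FPKM on a log axis, eosinophil granule genes in red and basophil and mast cell genes in blue, with 95% Wilson intervals of the recovered fragments as bars where they are wider than the points. *Prg2* stands apart at 2766 FPKM, *Prss34*, drawn as an open point without an interval, is the only blue point above a red one, and *Ms4a2* is lowest at 4.62 FPKM.

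The 10 levels spanned a factor of 599. In descending order they were those of *Prg2*, *Ear2*, *Epx*, *Prss34*, *Prg3*, *Mcpt8*, *Hdc*, *Cpa3*, *Fcer1a* and *Ms4a2*. Among neighbours in this order that have an interval, only *Cpa3* and *Fcer1a* could not be told apart, with a ratio of 1.05 (95% exact interval, 0.903 to 1.24). The order of *Mcpt8* and *Hdc* turned with the length used. Over the longest protein-coding transcript *Hdc* had 118 FPKM and *Mcpt8* 104 FPKM, and in fragments not divided by length *Mcpt8* was 0.306 times *Hdc*. Likewise, *Ear2* was 0.595 times *Epx* in fragments. *Prg2* was the gene with rank 12 of the 21322 above 0 FPKM, and *Ear2* had rank 75. Of the 10 genes, 6 were among the first 1000, namely all 4 eosinophil genes together with *Prss34* and *Mcpt8*. *Hdc* had rank 1317, *Cpa3* rank 3309, *Fcer1a* rank 3475 and *Ms4a2* rank 7888.

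**Figure D2:**
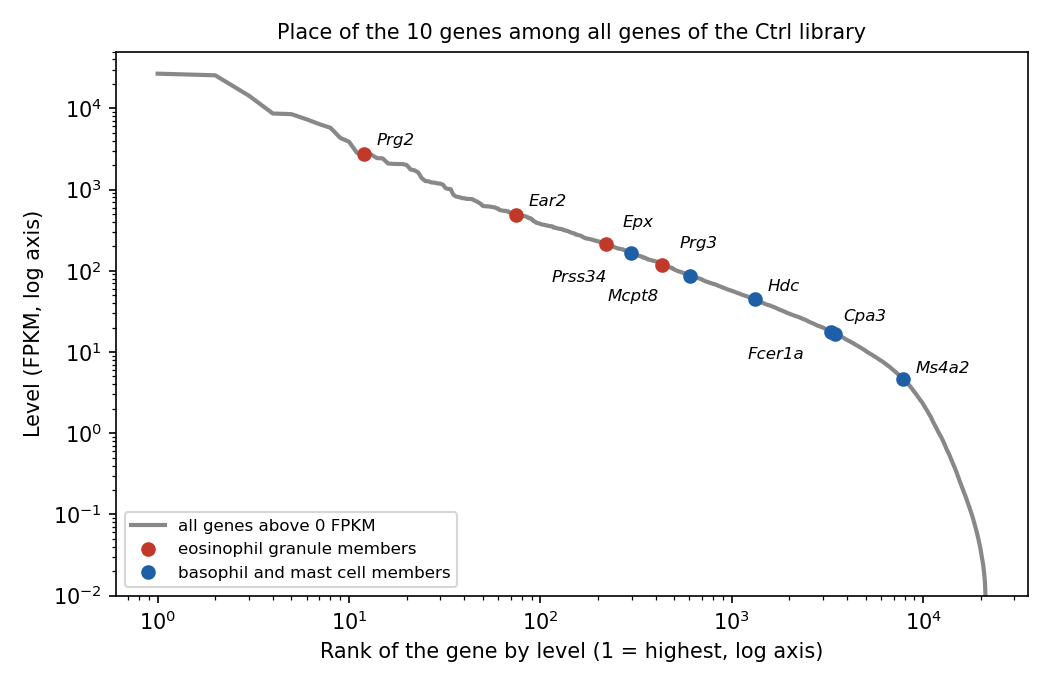
Level in FPKM against rank for all 21322 genes above 0 FPKM (grey line, both axes log), with the eosinophil granule genes in red and the basophil and mast cell genes in blue. The red points lie between rank 12 and rank 434, and the blue points between rank 296 and rank 7888.

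GATA1 and GATA2 are transcription factors of these lineages that bind the letters GATA, so the promoters were read for such letters. RefSeq promoters on GRCm38.p6 were available here for 9 of the 10 genes, all but *Prg2*, and the 250 bases before the start were searched. Hexamers made of A or T, then GATA, then A or G, on either strand, occurred in 6 of the 9, against 26.5% of 32851 promoters. These were *Prss34*, *Cpa3*, *Ms4a2*, *Fcer1a*, *Hdc* and *Prg3*. The letters TTGCNNAA, a form of the C/EBP site, were found on either strand in 2 of the 9 (*Ear2* and *Fcer1a*), against 9.56% of all promoters. TATAAA on the sense strand was found in 3 of the 9 (*Cpa3*, *Fcer1a* and *Epx*), against 7.59%. The 4 GATA hexamers share their core, and each position was counted once. A match in letters does not show that a factor binds there. Of the eosinophil genes searched, which leave out *Prg2*, only *Prg3* had a match. The matches of *Prss34* and *Cpa3* lie close to the start, and *Ms4a2* has 3 matches. The sequences of *Prg3*, *Prss34*, *Cpa3* and *Ms4a2* are printed with the hexamers in capitals. These sequences run 5′ to 3′ in the direction of the gene and end at the base before its start. They lie at chr2:84987965-84988214 on the forward strand, chr17:25298144-25298393 on the forward strand, chr3:20242182-20242431 on the reverse strand and chr19:11623720-11623969 on the reverse strand.
Prg3: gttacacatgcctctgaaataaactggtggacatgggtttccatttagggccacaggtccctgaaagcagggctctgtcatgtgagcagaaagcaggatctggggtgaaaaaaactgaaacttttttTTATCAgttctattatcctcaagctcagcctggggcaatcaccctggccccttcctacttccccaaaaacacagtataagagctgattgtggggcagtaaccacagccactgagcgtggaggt
Prss34: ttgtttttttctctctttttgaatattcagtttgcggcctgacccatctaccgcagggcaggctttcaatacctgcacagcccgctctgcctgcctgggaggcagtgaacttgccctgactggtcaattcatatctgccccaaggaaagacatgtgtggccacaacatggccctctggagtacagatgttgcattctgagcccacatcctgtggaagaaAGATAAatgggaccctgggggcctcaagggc
Cpa3: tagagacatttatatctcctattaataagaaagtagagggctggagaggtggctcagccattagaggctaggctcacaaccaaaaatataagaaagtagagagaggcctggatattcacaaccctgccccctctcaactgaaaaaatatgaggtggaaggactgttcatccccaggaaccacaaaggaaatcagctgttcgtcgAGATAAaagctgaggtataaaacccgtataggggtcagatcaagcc
Ms4a2: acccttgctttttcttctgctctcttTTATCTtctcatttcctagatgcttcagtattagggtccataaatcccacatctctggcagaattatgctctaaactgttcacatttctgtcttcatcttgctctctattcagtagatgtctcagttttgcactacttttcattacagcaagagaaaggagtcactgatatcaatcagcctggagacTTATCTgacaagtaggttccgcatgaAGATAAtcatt
Counted from the start, the hexamer of *Prg3* begins at -123, that of *Prss34* at -31 and that of *Cpa3* at -46. *Ms4a2* has matches beginning at -224, -37 and -11. Of the 9 genes searched, *Ms4a2* had the most matches and the lowest level, while *Epx*, *Ear2* and *Mcpt8* had none within these 250 bases.

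*Prg2* (ENSMUSG00000027073) encodes the major basic protein, the chief constituent of the eosinophil granule core. It lies at chr2:84980461-84983632 (GRCm38, forward strand). Its level was 2766 FPKM (95% Wilson interval, 2738 to 2794) from 36585 recovered fragments. *Prg3* (ENSMUSG00000027072), which encodes a related major basic protein homolog, is the next protein-coding gene on the same strand, 4582 bases away, at chr2:84988215-84993886. It had 119 FPKM (interval, 114 to 125) from 1782 fragments. *Prg2* was thus 23.3 times *Prg3* (exact interval, 22.2 to 24.4), although the pair are adjacent and their coding sequences are alike in 63.7% of aligned positions. Neither gene had a stretch of 100 bases in common with another annotated gene. Shorter or inexact matches were not searched. On the outer sides of the pair, *Slc43a3* had 41.5 FPKM and *P2rx3* 1.14 FPKM. The level of *Prg2* was 6.37 times that of *Mpo* (interval, 6.27 to 6.48) and 3.54 times that of *Elane* (interval, 3.47 to 3.61), the genes of the myeloperoxidase and the elastase of neutrophil primary granules. It was 0.714 times that of *Camp* (interval, 0.705 to 0.724), which encodes the cathelicidin of neutrophil secondary granules. Of the stretches of 100 bases in *Mpo*, 5.45% also occur in another annotated gene, which the interval of its ratio does not cover.

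*Epx* (ENSMUSG00000052234), which encodes eosinophil peroxidase, lies at chr11:87864000-87875536 (reverse strand). Its level was 216 FPKM (interval, 212 to 221) from 9336 fragments. Myeloperoxidase and lactoperoxidase, the closest relatives of this enzyme, are encoded in the same cluster by *Mpo* and *Lpo*. *Mpo* had 434 FPKM, 2.01 times *Epx* (interval, 1.96 to 2.06), and *Lpo* had 0.404 FPKM. The interval does not cover the stretches that *Mpo* shares with another annotated gene. *Mks1*, between *Lpo* and *Epx*, had 1.43 FPKM. The coding sequence of *Epx* is identical to that of *Mpo* at 70.5% of aligned positions and to that of *Lpo* at 58.3%. *Epx* was 535 times *Lpo* (exact interval, 346 to 876).

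*Ear2* (ENSMUSG00000072596) encodes an eosinophil-associated ribonuclease at chr14:44102654-44103534 (forward strand). It had 490 FPKM (interval, 477 to 503) from 5559 fragments. The family has expanded in mice, and its copies are close in sequence. Among the other annotated genes, *Ear1* had 473 FPKM (interval, 461 to 486) and *Ear6* 378 FPKM (interval, 368 to 388), while *Ear10* had 0.0934 FPKM from 1 fragment and *Ear14* is listed at 0. *Ear2* and *Ear1* could not be told apart by counting error, with a ratio of 1.04 (exact interval, 0.997 to 1.08), and *Ear2* was 1.30 times *Ear6* (interval, 1.25 to 1.34). In fragments not divided by length the 3 genes were nearly equal, at 5559, 5450 and 5641. The levels of *Ear2* and *Ear1* are uncertain because 13.9% of the windows of 100 bases in *Ear2* and 23.9% of those in *Ear1* also occur in other genes of the family, and how the authors counted fragments with several matches is not given. The windows of *Ear2* are shared with *Ear10* and a pseudogene, *Ear-ps2*, which is also listed at 0. *Ear6* shares none. To show how close the copies are, the first 90 coding bases of *Ear2*, *Ear1* and *Ear6* are given 5′ to 3′ from GENCODE M21 transcripts on GRCm38. The capitals mark the 11 positions at which the 3 differ. The stretches lie at chr14:44102887-44102976 on the forward strand, chr14:43819320-43819409 on the reverse strand and chr14:51853998-51854087 on the forward strand.
Ear2: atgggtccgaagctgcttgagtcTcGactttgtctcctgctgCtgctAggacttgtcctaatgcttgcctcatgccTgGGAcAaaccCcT
Ear1: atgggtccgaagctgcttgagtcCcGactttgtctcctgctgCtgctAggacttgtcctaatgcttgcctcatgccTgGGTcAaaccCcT
Ear6: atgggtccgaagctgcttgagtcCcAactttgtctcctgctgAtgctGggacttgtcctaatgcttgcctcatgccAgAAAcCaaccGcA
In this stretch *Ear1* differs from *Ear2* at 2 positions and *Ear6* at 10. Over the whole coding sequence *Ear2* is identical to *Ear10* at 97.0% of aligned positions, to *Ear1* at 95.1% and to *Ear6* at 87.7%. Of the 10 genes of the RNase A family examined, 5 reached 1 FPKM, the others being *Rnase6* at 25.0 FPKM and *Rnase4* at 4.30 FPKM. *Rnase2a* and *Rnase2b*, which lie near *Rnase6*, *Rnase4* and *Ear14* on the same chromosome, had 0.184 and 0.751 FPKM.

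Surface receptors and enzymes of eosinophils were detected as well. All 5 genes of this list reached 1 FPKM (median, 13.2 FPKM). Of these, 4 lay below each of the granule genes, *Csf2ra* being the exception. *Ccr3*, the receptor for eotaxins, had 13.2 FPKM (interval, 12.2 to 14.2) and *Siglecf*, a sialic acid-binding lectin of mature eosinophils, had 11.8 FPKM (interval, 10.8 to 12.8). These could not be told apart by counting error, with a ratio of 1.12 (exact interval, 0.999 to 1.26). *Il5ra*, the IL-5-binding chain of the receptor that drives eosinophil growth, was lower at 3.30 FPKM (interval, 2.86 to 3.81). *Alox15*, a lipoxygenase abundant in eosinophils, had 74.6 FPKM. *Csf2ra*, the GM-CSF-binding receptor chain, had 127 FPKM, with no interval because its multiple was not whole. *Alox15* and *Csf2ra* are also used by other myeloid cells.

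*Prss34* (ENSMUSG00000056399) and *Mcpt8* (ENSMUSG00000022157) encode serine proteases that mark basophils in mice. *Prss34*, at chr17:25298394-25300165 (forward strand), had 168 FPKM and was the highest of the 6 basophil and mast cell genes. Its value times its exon length was not a whole multiple of the step of 1 fragment, so it has no interval. *Mcpt8*, at chr14:56082166-56085273 (reverse strand), had 87.0 FPKM (interval, 82.5 to 91.7) from 1370 fragments. *Prss34* was 1.93 times *Mcpt8*. Both belong to clusters of related proteases, most of whose other genes were near or at 0. Of the 15 protein-coding genes on chromosome 14 from *Cma1* to *Gzmb*, which hold chymases and granzymes, 3 reached 1 FPKM. These were *Mcpt8*, its neighbour *Ctsg*, the cathepsin G gene of neutrophil primary granules, at 241 FPKM, and *Gzmb* at 1.32 FPKM. *Ctsg* was 2.77 times *Mcpt8* (interval, 2.60 to 2.95), and 9 of the 15 genes are listed at 0. Of the 6 genes on chromosome 17 from *Prss34* to *Tpsg1*, which hold tryptases, only *Prss34* reached 1 FPKM. *Prss28* had 0.213 FPKM and the other 4 are listed at 0. Neither *Prss34* nor *Mcpt8* had a window of 100 bases in common with another gene.

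**Figure D3:**
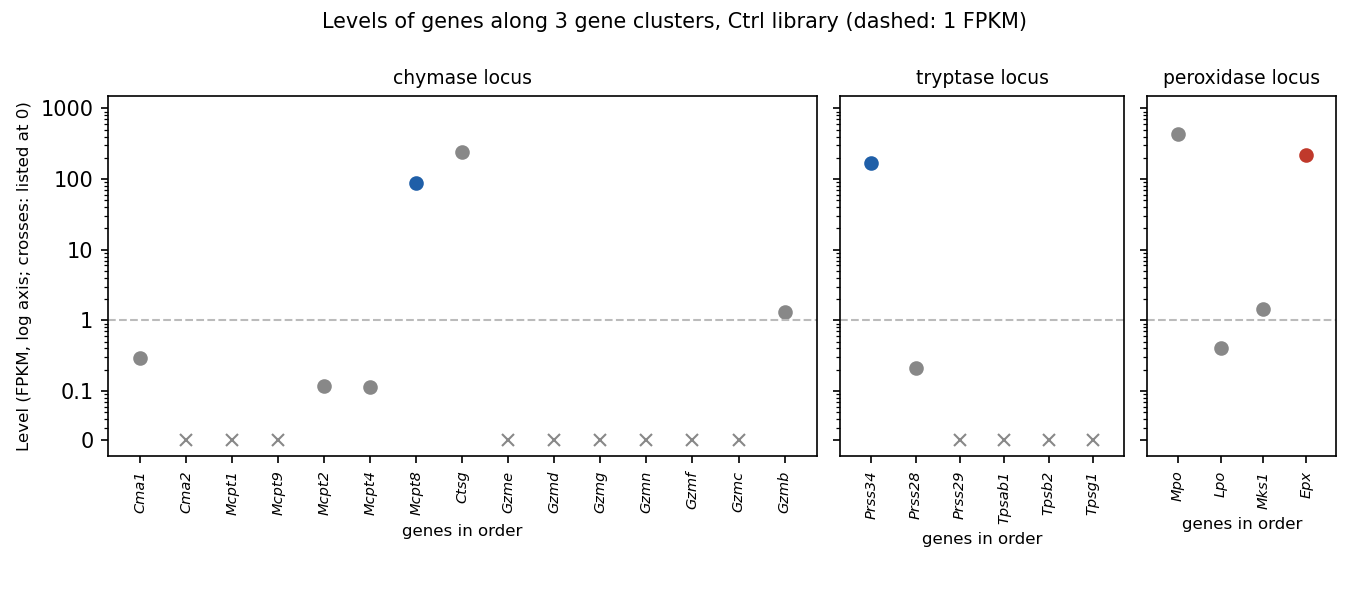
Levels in FPKM (log axis, crosses for genes listed at 0, dashed line at 1 FPKM) of the protein-coding genes in chromosomal order in the chymase, tryptase and peroxidase clusters, with basophil genes in blue and *Epx* in red. *Mcpt8* and *Ctsg* stand next to each other at 87.0 and 241 FPKM among genes near 0, *Prss34* is alone at 168 FPKM, and *Epx* and *Mpo* lie at the ends of their cluster with *Lpo* and *Mks1* below.

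*Cpa3* (ENSMUSG00000001865), which encodes carboxypeptidase A3 of mast cell and basophil granules, had 17.7 FPKM (interval, 16.1 to 19.5) from 425 fragments. It lies at chr3:20215620-20242181 (reverse strand), next to the carboxypeptidase gene *Cpb1*, which had 0.0193 FPKM. *Mcpt8* was 4.90 times *Cpa3* (exact interval, 4.39 to 5.48). The proteases of tissue mast cells, by contrast, were near or below what this depth detects. Of the 10 genes on that list, which also holds *Mrgprb2*, a receptor of connective tissue mast cells, 6 are listed at 0 and only *Gzmb* reached 1 FPKM. The chymase genes *Cma1* and *Mcpt4* had 0.291 FPKM (interval, 0.124 to 0.680) and 0.114 FPKM (interval, 0.0314 to 0.417). The tryptase genes *Tpsab1* and *Tpsb2* are also at 0, with limits at 3 fragments of 0.0908 and 0.119 FPKM, and the limit for *Mrgprb2* is 0.0915 FPKM. *Cpa3* was 61.1 times *Cma1* (interval, 26.0 to 189). Of the members, *Cpa3*, *Ms4a2*, *Fcer1a* and *Hdc* are shared by basophils and mast cells, so their levels alone do not separate these cells.

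The high-affinity IgE receptor is built of an IgE-binding alpha chain (*Fcer1a*), a signal-amplifying beta chain (*Ms4a2*) and a gamma chain (*Fcer1g*) that many other Fc receptors share. *Fcer1a* (ENSMUSG00000005339), at chr1:173221284-173227214 (reverse strand), had 16.8 FPKM (interval, 14.9 to 18.97) from 265 fragments. *Ms4a2* (ENSMUSG00000024680), at chr19:11615523-11623719 (reverse strand), had 4.62 FPKM (interval, 4.03 to 5.29) from 205 fragments, and it shares 0.419% of its windows of 100 bases with *Ms4a4b*. *Fcer1g* had 353 FPKM (interval, 343 to 363). The alpha chain was 3.64 times the beta chain (exact interval, 3.03 to 4.39), and the gamma chain was 21.0 times the alpha chain (interval, 18.5 to 23.8). In fragments not divided by length, *Fcer1a* was 1.29 times *Ms4a2*. The neighbours of *Fcer1a* are olfactory receptor genes, both listed at 0. *Ms4a2* lies beside *Ms4a3*, a gene of granulocyte-monocyte progenitors, which was far higher at 65.4 FPKM. It was below the median of 5.91 FPKM over the 13 genes from *Ms4a1*, the CD20 gene of B cells, to *Ms4a2*. Of the 10 genes of the receptor and its proximal signalling, all reached 1 FPKM, with a median of 24.2 FPKM. The kinase genes *Lyn* and *Syk* had 62.9 and 64.1 FPKM and *Plcg2* 70.8 FPKM, while the adaptor genes *Lat* and *Lat2* had 5.52 and 8.97 FPKM. These signalling genes are used by many blood cells.

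*Hdc* (ENSMUSG00000027360) encodes histidine decarboxylase, the enzyme that makes histamine, and lies at chr2:126593667-126619299 (reverse strand). It had 44.4 FPKM (interval, 43.1 to 45.7) from 4473 fragments, the most fragments of the 6 basophil and mast cell genes. Its level depends on the length used. All its exons cover 6389 bases, but its only protein-coding transcript has 2392, and over that length the same fragments would give 118 FPKM, 2.67 times as much. For the other 9 genes this factor lay between 1 and 1.19. *Hdc* was 6.32 times *Hnmt* (exact interval, 5.48 to 7.33), which encodes a histamine-inactivating methyltransferase. *Slc18a2*, the transporter that loads histamine into granules, had 1.77 FPKM. *Srgn*, which encodes the proteoglycan core of many granules, was high at 236 FPKM. Of the leukotriene genes, *Alox5ap* had 160 FPKM and *Alox5* 52.3 FPKM, whereas *Ltc4s*, which completes leukotriene synthesis in basophils, mast cells and eosinophils, had 0.312 FPKM (interval, 0.133 to 0.731). The prostaglandin synthase gene *Hpgds* had 0.818 FPKM. In all, 8 of the 10 genes of this list reached 1 FPKM. *Hdc* is also expressed by other myeloid cells.

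Of the 11 surface genes of basophils and mast cells, 9 reached 1 FPKM, with a median of 7.17 FPKM. *Il3ra*, the binding chain for IL-3, the main growth factor of basophils, had 8.93 FPKM (interval, 8.11 to 9.82). The beta chain genes *Csf2rb* and *Csf2rb2* had 34.9 and 11.9 FPKM, although they share 6.46% and 7.05% of their windows of 100 bases. The highest of the list were the integrin gene *Itgb7* at 79.7 FPKM and *Cd63*, a granule membrane protein of many cells, at 48.6 FPKM. *Cd200r3*, an activating receptor, had 1.27 FPKM (interval, 1.06 to 1.52), and *Mcpt8* was 68.5 times as high (exact interval, 56.8 to 83.2). *Il1rl1*, the IL-33 receptor, had 4.82 FPKM, *Il18r1*, the IL-18 receptor, 4.37 FPKM, *Enpp3*, an activation marker, 0.400 FPKM and *Ptgdr2*, a prostaglandin receptor, 0.120 FPKM. *Kit*, the gene of the sorting antigen, which mast cells keep and mature basophils and eosinophils largely lose, had 7.17 FPKM (interval, 6.74 to 7.62).

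The 15 transcription factor genes chosen for these lineages all reached 1 FPKM, with a median of 33.1 FPKM. *Gata1* had 50.3 FPKM (interval, 48.1 to 52.5) and *Gata2* 6.82 FPKM (interval, 6.29 to 7.40), a ratio of 7.37 (exact interval, 6.71 to 8.10). GATA1 is also the main factor of red cell precursors, whose genes were abundant in this library. *Cebpe*, a factor of late granulocyte maturation, had 131 FPKM, *Spi1* 137 FPKM and *Cebpa* 38.1 FPKM. *Trib1*, which acts in eosinophil and neutrophil development, had 33.1 FPKM. *Mitf*, the factor of mast cells, was lowest of the 15 at 1.05 FPKM (interval, 0.869 to 1.28).

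**Figure D4:**
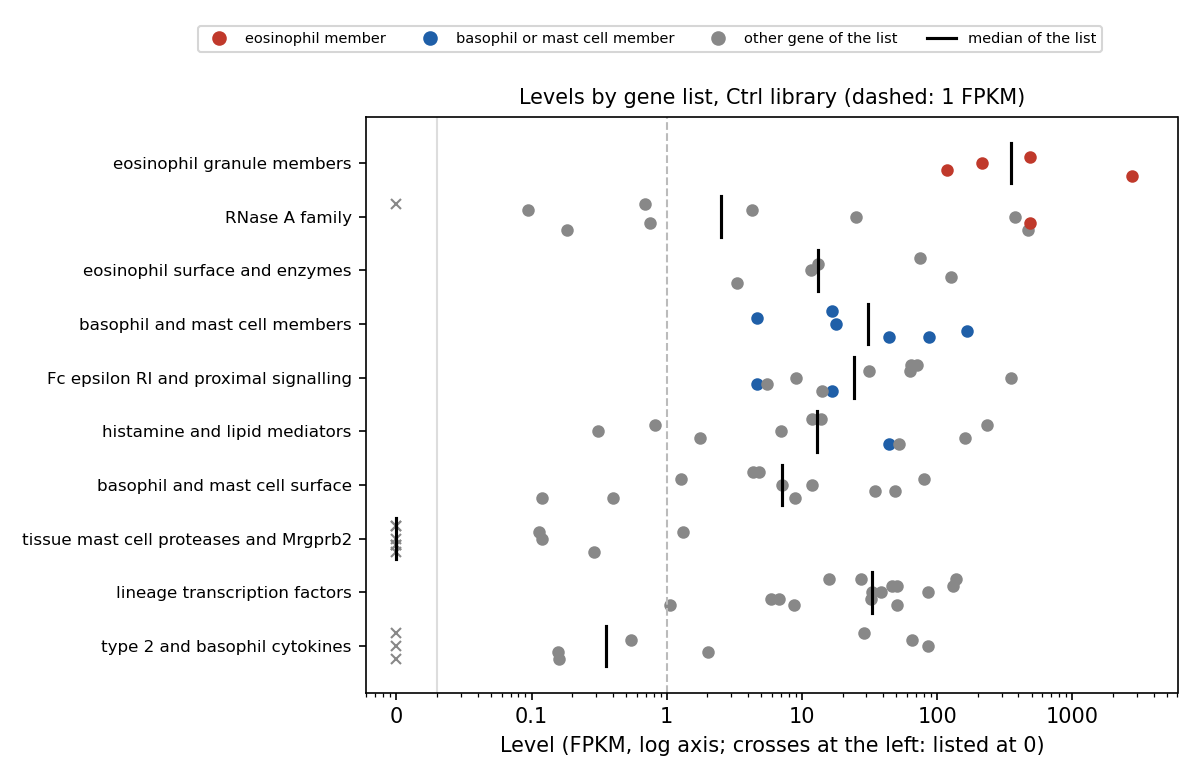
Levels in FPKM (log axis) of each gene in 10 lists, with the eosinophil members in red, the basophil and mast cell members in blue, other genes in grey, the median of each list as a black line, and genes listed at 0 as crosses at the left. The eosinophil granule genes all lie above 100 FPKM, whereas 6 of the 10 genes of the tissue mast cell list are crosses at 0.

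Of the 20 nearest protein-coding genes, 1 on each side of each of the 10 genes, 11 reached 1 FPKM, against 46.8% of all protein-coding genes. *Prg2* and *Prg3* are among the 11, each counted as the neighbour of the other. The median of protein-coding genes above 0 was 4.22 FPKM, below all 10 genes, so a lower neighbour is the likelier outcome for each. Of the 20 neighbours, 15 were below the gene beside them. The 5 above it were *Ctsg* beside *Mcpt8*, *Gyg* beside *Cpa3*, *Ms4a3* and *Ms4a6d* beside *Ms4a2*, and *Prg2* beside *Prg3*.

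The library held RNA of other blood lineages, although the labels give the cells as lineage-negative. The 9 genes of mature neutrophils had a median of 2831 FPKM, the 6 erythroid genes 1113 FPKM and the 6 B cell genes 148 FPKM. The medians of the macrophage, megakaryocyte, T cell and NK cell lists were 45.6, 16.2, 5.25 and 1.82 FPKM. The median of the 4 eosinophil granule genes, 353 FPKM, thus lay above that of the B cell genes and below that of the erythroid genes. It was also below the median of the 4 neutrophil primary granule genes found, which was 407 FPKM. The part of these other cells in the levels of the 10 genes was not tested. Recovered fragments summed to 17113323 over all genes. On the FPKM scale, 1 fragment on a gene of 1000 bases is 0.0634 FPKM, which corresponds to a total of 15783891. The cause of the difference between these totals was not tested.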

How the data were processed

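The authors sequenced RNA of sorted c-kit+ BM cells on the Illumina HiSeq platform, and the Ctrl library is used here. The deposited values are FPKM, 1 per gene, made by the authors. Their processing notes name HISAT2 2.0.5, featureCounts 1.5.0-p3 and the build mm10. The annotation, the strandedness and the treatment of fragments with several matches are not given in the sources used here.

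Gene names, exon lengths and coordinates came from GENCODE M21 (GRCm38), which lacked 37 of the 54532 identifiers. FPKM times exon length was a whole multiple of a single step, within 0.01, for 96.4% of genes above 0 (64.6% on chromosomes 17, 18 and 19, the cause of which was not tested), and for 9 of the 10 members. Rounded multiples, summing to 17113323, were taken as fragments and gave 95% Wilson intervals and, for ratios, exact binomial intervals. Fragments without molecular identifiers are not independent molecules. A gene at 0 was given the limit of 3 fragments. The recovery was tested on simulated data. These did not model the lower share of whole multiples on chromosomes 17, 18 and 19. Their summed fragments also equalled the total behind their FPKM. Detection was set at 1 FPKM. With 1 library no test was possible, and values are described.

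The members and lists were chosen with earlier results of these data known. All members, genes of the lists and the nearest protein-coding genes could be named. Further genes named, the remaining genes of the 3 clusters and *Ear-ps2*, were taken by position or sequence. *Azu1*, on the neutrophil granule list, had no match and was left out, and 1 further gene of the lists is not reported here. Windows of 100 bases were compared over GENCODE M21 transcripts, and coding sequences were aligned globally. Alternatives were other detection minimums, fragments without division by length, other lengths and totals without the 10 most abundant genes. Sums in place of medians and leaving out *Hdc* or *Ear2* were further alternatives. The tools were biopython 1.88, matplotlib 3.10.9, scipy 1.17.1, pandas 2.3.3 and numpy 2.4.6 under Python 3.11.15.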

Additional observations from a re-analysis of the deposited data

How the results depend on the processing

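No paired analysis was possible because a single library has no partner. The ratio of the basophil and mast cell median to the eosinophil median stayed under 1 in the 5 alternatives that could change it. Leaving out members under 1 FPKM, of which there are none, and leaving the 10 most abundant genes out of the total, which scales all genes alike, could not. It was 0.0880 as reported, 0.0941 with summed FPKM in place of medians, and 0.121 in fragments not divided by length. Without *Ear2* it was 0.144 and without *Hdc* 0.0503. With the length of the longest protein-coding transcript, an alternative chosen after seeing the data, it was 0.173. Of the 24 pairs, the eosinophil gene was higher in 22 when fragments were not divided by length and in 23 with the transcript length.

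The basophil and mast cell median of 31.1 FPKM is the mean of *Cpa3* and *Hdc*, the middle genes of the 6. It was 17.7 FPKM without *Hdc*, 61.2 FPKM with the transcript length, 33.9 FPKM without the 10 most abundant genes in the total, and 898 fragments without division by length. The eosinophil median of 353 FPKM was 385 FPKM without the 10 most abundant genes, a factor of 1.09 common to every gene, and 7448 fragments without division by length. All 10 members stayed above 0.1 FPKM and 9 above 10 FPKM, *Ms4a2* being the exception. Ranked by fragments, 6 of the 10 members changed place, among them *Hdc*, which moved from place 7 to place 4. Depth limits the genes near 0, and differences between mice could not be measured.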

Other observations

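Cytokines that basophils, mast cells and other cells of type 2 immunity make ranged from 0 to 85.3 FPKM. Of 10 such genes, 4 reached 1 FPKM. *Il4*, a cytokine that basophils release on activation, had 2.01 FPKM (95% Wilson interval, 1.47 to 2.75), while *Il13*, *Il5* and *Il3* were at 0, with limits at 3 fragments of 0.158, 0.124 and 0.302 FPKM. *Il6* had 0.548 FPKM and *Csf2* 0.158 FPKM. The highest were *Osm* at 85.3 FPKM (interval, 82.4 to 88.4), *Ccl3* at 64.7 FPKM (interval, 60.3 to 69.4) and *Ccl4* at 28.8 FPKM (interval, 25.7 to 32.2), which neutrophils and macrophages make as well. *Areg* had 0.156 FPKM.

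The pseudogene *Ear-ps9*, which shares windows of 100 bases with *Ear1*, had 7.34 FPKM from 58 fragments, whereas the other 9 *Ear* pseudogenes in the annotation are listed at 0.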
